A study of Rattus norvegicus with 6 samples.

Results

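Matrix glycoproteins and proteoglycans are the proteins, other than collagens, from which connective tissue cells build the extracellular matrix and through which they attach to it. A list of 48 genes of this kind covered proteoglycans, elastic fiber proteins, matricellular proteins and adhesive glycoproteins. These genes were chosen by textbook role, with earlier results of these data known. The deposited count table of 34156 genes held 46 of them, and the other 2 were not analysed here. The test was run on the 29 of these 46 that reached 10 counts in 3 or more libraries.

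Rat cells that the study calls RA-FLS (RA for rheumatoid arthritis, FLS for fibroblast-like synoviocytes) were sequenced as poly(A)-selected RNA in 2 groups of 3 libraries. Fibroblast-like synoviocytes are lining cells of the joint. All 6 libraries came from wild-type cells treated with 10 ng/mL TNF-α, an inflammatory cytokine, and the EMO group also received 80 μmol/L emodin (EMO), an anthraquinone from rhubarb. There was no group without TNF-α and no group with EMO alone, so each value compares TNF-α plus EMO with TNF-α. The labels give day 5, whereas the study's methods describe a shorter treatment. The methods describe cells obtained from a supplier and call the 3 libraries of a condition biological replicates, without saying whether they were separate isolations, so p-values measure the spread between these samples, which may be technical.

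The extracellular matrix of the joint is made by such fibroblasts. A proteoglycan is a core protein that carries sulfated sugar chains, called glycosaminoglycans, which hold water and bind growth factors. The small leucine-rich proteoglycans coat collagen fibrils, the large ones fill the space between cells, and the syndecans sit in the plasma membrane. Elastic fibers are built on fibrillin microfibrils, with fibulins and emilins at their surface. Matricellular proteins such as thrombospondins, tenascin C and periostin are secreted into the matrix as signals rather than as scaffold, and fibronectin and the nidogens link cells, collagens and basement membranes.

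Library totals lay between 16813322 and 17794455 counts. At least 10 counts were reached by 13342 to 13365 genes in the TNF-α libraries and by 12566 to 12662 in the EMO libraries. EMO replicate 3 stood somewhat apart from the other EMO libraries, with a chi-square per gene of 15.1 and 23.5 against them, where TNF-α libraries gave 4.62 to 5.73 among themselves. Of 11 fibroblast markers in the table, 9 were tested and 8 fell, against 27.8% called lower over all genes tested. For Fap, 1 of the 8, the count filter was passed only through the TNF-α group, so it had to differ. The summed level of the 11 markers ranged from 205913 to 226373 normalized counts in the TNF-α group and from 35705 to 38372 in the EMO group. Thy1 and Pdpn, surface markers of synovial fibroblasts, were at or near 0 in both groups, and Prg4, the lubricin gene of the synovial lining, had at most 4 counts in any library. Defining markers of other cell types, Ptprc of leukocytes, Kdr of endothelium and Epcam of epithelium, were also at or near 0. Summed marker levels in the TNF-α and EMO groups were 1205 to 1311 and 747 to 818 for macrophages and leukocytes, 70.2 to 76.5 and 16.3 to 22.7 for endothelium, 9950 to 10812 and 1968 to 2304 for epithelium (nearly all Krt8), 476 to 567 and 36.1 to 74.4 for chondrocytes, and 860 to 942 and 58.8 to 72.3 for smooth muscle. Not every marker followed the sum of its list. Among macrophage and leukocyte markers Cd14 fell (1093 to 510 in mean), Itgam rose from 0.327 to 12.3 but overlaps a gene with up to 1763 counts and is uncertain, and Cd68 averaged 153 and 256, below the fold threshold (log2 fold change 0.75, adjusted p = 0.00024). Among chondrocyte markers Sox9 fell (487 to 4.10) and Col11a2 rose (17.3 to 41.9). These levels moved with the group, and their part in the results was not tested. In bulk RNA, fewer cells of a type and less RNA per cell cannot be told apart.

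Of the 29 tested genes, 28 fell with EMO and 1, Dcn, rose. A gene was called when edgeR's quasi-likelihood test, adjusted over all 13614 genes tested by the Benjamini-Hochberg method, gave an adjusted p under 0.05 and the log2 fold change (EMO against TNF-α) exceeded 1 in either direction. Of all genes tested, 27.8% were called lower and 19.5% were called higher. The values of the 2 groups did not overlap for any of the 29, against 82.9% of all genes tested. Over the 29, the log2 fold change had a median of -3.68, or -3.67 with the genes that had no more than 3 counts in each EMO library set at their bound, and -0.01 over all genes. For 5 of the 29 (Dcn, Lum, Fmod, Prelp and Mgp) the count filter was passed only through the group in which they were high. These 5 had to differ. The other 24 reached 10 counts in a library of each group, and all 24 fell, by 2.23-fold to 1564-fold, with a median of 11.8-fold. Among genes with a mean of at least 100 normalized counts, 24.1% were called lower, and 26 of 26 members at that level were, but Lum, Fmod and Mgp among them are of the kind that had to differ.

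**Figure D1:**
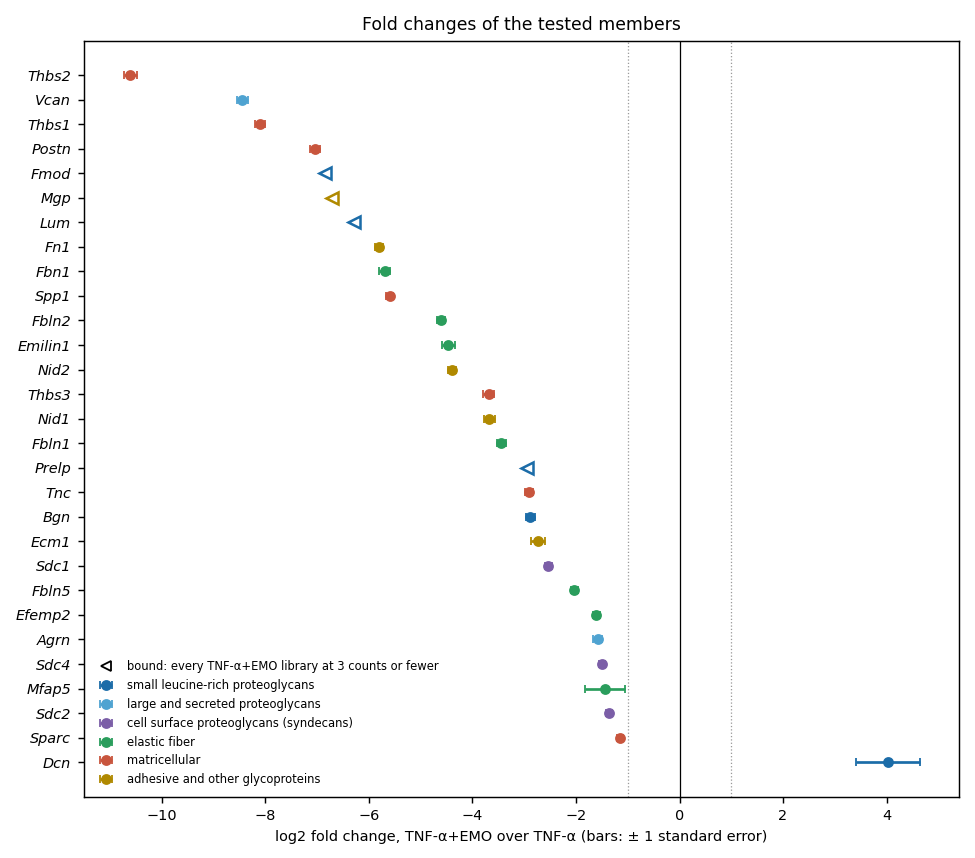
Log2 fold change (EMO against TNF-α) of the 29 tested genes, coloured by class, with 1 standard error on either side, from edgeR's quasi-likelihood fit on 3 libraries per group. Open triangles are bounds for the 4 genes with no more than 3 counts in each EMO library, and dotted lines mark a log2 fold change of 1 in either direction. The fitted values run from -10.61 for Thbs2 to -1.16 for Sparc, and Dcn at 4.02 is the only gene right of 0.

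Together the 46 genes took up 2.49% ± 0.0667 (SD, n = 3) of all counts with TNF-α alone and 0.152% ± 0.00753 (SD, n = 3) in the EMO group. The 3 TNF-α libraries held 2.49%, 2.56% and 2.42%, and the 3 EMO libraries held 0.150%, 0.161% and 0.146%. The share was thus 16.3-fold lower with EMO, and the 2 groups did not overlap. The exact two-sided permutation test gave p = 0.1, the smallest that 3 against 3 libraries allow. Matricellular genes were the largest class in both groups, with 1.11% of all counts in the TNF-α group and 0.0553% in the EMO group. Adhesive and other glycoproteins went from 0.539% to 0.0116%, small leucine-rich proteoglycans from 0.346% to 0.0431%, large proteoglycans from 0.244% to 0.00340%, elastic fiber genes from 0.187% to 0.0225% and syndecans from 0.0648% to 0.0166%. The class shares were not tested separately.

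**Figure D2:**
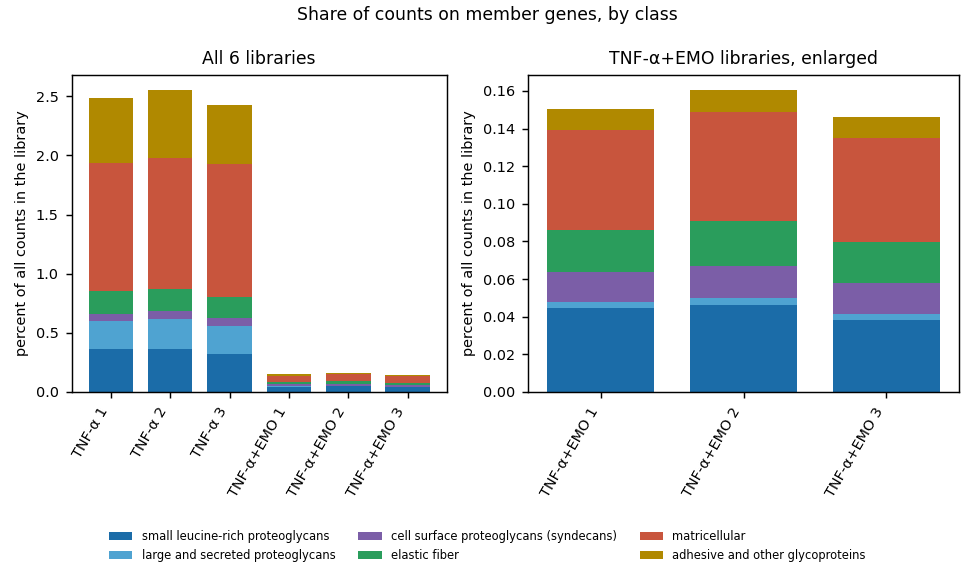
Counts of the 46 genes as a percent of all counts in each of the 6 libraries, divided by class, with the EMO libraries repeated on an enlarged axis at the right. The TNF-α libraries sit between 2.42% and 2.56% and the EMO libraries between 0.146% and 0.161%.

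The small leucine-rich proteoglycans went both ways. Of 8 genes in the class, 5 were tested, 4 fell and Dcn rose. Over all genes tested, 27.8% were called lower and 19.5% higher. For 4 of the 5, Dcn among them, the filter was passed through a single group, so these had to differ. Biglycan (Bgn; ENSRNOG00000055962, chromosome X, 157319046 to 157331204, minus strand), a fibril-associated proteoglycan that also signals to innate immune receptors, was the most abundant. It had 59244, 58883 and 51583 normalized counts (counts scaled by the TMM library factors) with TNF-α alone and 7878, 8223 and 6887 with EMO. All TNF-α values lay far above all EMO values, and the fall was 7.38-fold (log2 fold change -2.88, SE 0.08, adjusted p = 1.4e-10).

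Lumican (Lum; ENSRNOG00000004610, chromosome 7, 38819771 to 38826862, plus strand), which keeps collagen fibrils thin and evenly spaced, had between 231 and 256 normalized counts in the TNF-α libraries. It had 0 in each EMO library, which allows up to 3 counts a library, and so was at least 78.6-fold lower (adjusted p = 1.1e-08). Fibromodulin (Fmod), a collagen-binding relative, averaged 353 ± 47.1 (SD, n = 3) with TNF-α alone, with at most 3.06 in an EMO library, a fall of at least 115-fold (adjusted p = 6.0e-09). Prelp, a basement membrane anchor of the same family, went from 23.8 ± 1.49 (SD, n = 3) to 0 in all 3 EMO libraries, a fall of at least 7.73-fold (adjusted p = 2.1e-05). These 3 genes were thus near or at the detection limit in every EMO library. Fmod and Prelp lie 112249 bases apart on opposite strands of chromosome 13.

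Decorin (Dcn; ENSRNOG00000004554, chromosome 7, 38742051 to 38782323, plus strand), which binds collagen fibrils and holds TGF-β, was the exception. It had 0, 3.90 and 0.974 normalized counts with TNF-α alone and 34.0, 24.6 and 26.5 with EMO. All EMO values were above all TNF-α values, though every value was low. Dcn passed the count filter only through the EMO group, so it had to differ. The log2 fold change was 4.02 (SE 0.61, adjusted p = 0.000104), and it ranged from 3.47 to 5.53 over the fits that left out 1 library, with the highest value without TNF-α replicate 2, the library with the most Dcn counts in that group. Dcn and Lum lie on the same strand, with 37447 bases between them, and the deposited coordinates place Dcn first. The other 3 members of the class stayed under the filter: Ogn had 1, 7 and 2 counts with TNF-α alone and none with EMO, Aspn had 3, 6 and 3 and none, and Omd had 0 throughout. Ogn and Aspn, 28430 bases apart on chromosome 17, also overlap Cenpp, which had up to 141 counts, so their counts are uncertain.

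**Figure D3:**
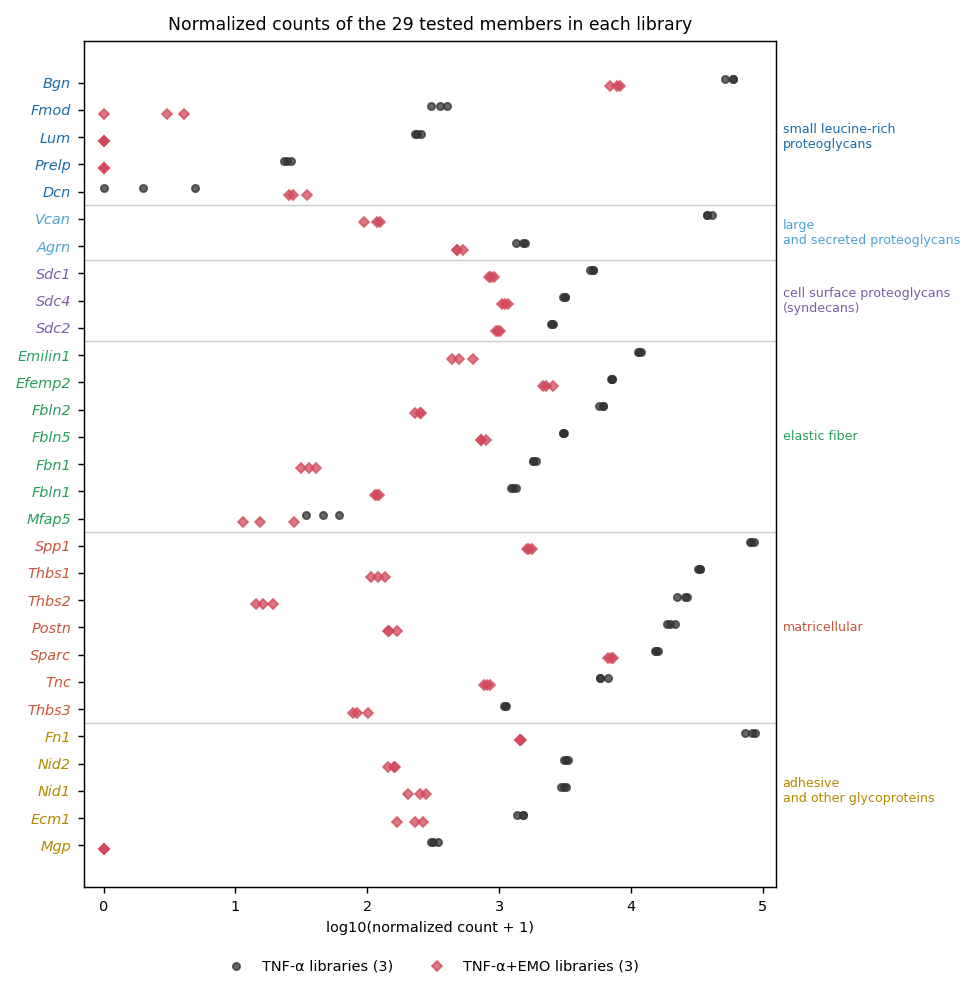
Normalized counts of the 29 tested genes in each library, by class, as log10 of the value plus 1, with TNF-α libraries as circles and EMO libraries as diamonds. The TNF-α points lie to the right of the EMO points for each of the 28 genes that fell and to the left of them for Dcn.

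Of the large and secreted proteoglycans, 2 of 4 in the table were tested and both fell, against 27.8% called lower over all genes tested. Versican (Vcan; ENSRNOG00000029212, chromosome 2, 18490102 to 18565842, minus strand), the space-filling proteoglycan that binds hyaluronan, had 37880, 40992 and 37733 normalized counts with TNF-α alone and 124, 118 and 92.7 with EMO. No library of either group came near the other group, and the fall was 349-fold (log2 fold change -8.45, SE 0.11, adjusted p = 1.1e-12). Agrin (Agrn), a heparan sulfate proteoglycan of basement membranes and of the neuromuscular junction, had 1576, 1521 and 1347 against 479, 479 and 533, a 2.98-fold fall (log2 fold change -1.58, SE 0.09, adjusted p = 2.0e-08). The difference between the 2 was wide although both lay beyond the threshold. Aggrecan (Acan), the proteoglycan of cartilage, had 0 counts in every library, and Prg4 had 4, 3 and 4 counts with TNF-α and 0 with EMO.

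The syndecans are transmembrane proteoglycans whose heparan sulfate chains serve as co-receptors for growth factors and matrix. They had the class median nearest to 0 (log2 -1.50). All 3 that were tested fell, against 27.8% called lower over all genes tested. Sdc1 had 5152, 4920 and 5135 normalized counts with TNF-α alone and 839, 919 and 867 with EMO, a 5.79-fold fall (log2 fold change -2.53, SE 0.06, adjusted p = 4.7e-11). Sdc4, the syndecan of focal adhesions, had 3168, 3159 and 3030 against 1048, 1162 and 1106, and fell 2.82-fold (adjusted p = 2.4e-09). Sdc2, which is typical of mesenchymal cells, had 2562, 2519 and 2461 against 944, 983 and 1016, and fell 2.56-fold (adjusted p = 4.0e-09). Replicates lay close together in each group and the groups did not overlap for any of the 3. Sdc3, known mainly from nerve and muscle, had 6, 5 and 4 counts and then none.

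Elastic fiber genes fell wherever they could be tested, 7 of 7, against 27.8% called lower over all genes tested. Their log2 fold changes ran from -5.69 to -1.43. Fibrillin 1 (Fbn1; chromosome 3, 117569697 to 117766120, minus strand), the backbone of the microfibril, had 1795, 1887 and 1793 normalized counts with TNF-α alone and 35.1, 39.9 and 30.6 with EMO. The EMO values were a small fraction of the TNF-α values, a fall of 51.7-fold (log2 fold change -5.69, SE 0.11, adjusted p = 7.5e-12). Emilin1, which sits between the elastin core and the microfibrils, had 11905, 11274 and 11418 against 435, 495 and 631, a 22.2-fold fall (adjusted p = 4.6e-10). Relative to the mean, its EMO values were more spread (SD 19.2% of the mean) than its TNF-α values (2.87%), with EMO replicate 3 highest.

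Fibulins bind microfibrils and other matrix proteins, and fibulin 5 and Efemp2 (fibulin 4) are needed for elastin assembly. Fbln2 had 6144, 6135 and 5692 normalized counts against 251, 256 and 230, and fell 24.4-fold (adjusted p = 3.4e-12). Fbln1 had 1343, 1277 and 1226 against 113, 122 and 118, and fell 10.9-fold (adjusted p = 5.7e-11). The assembly factors fell by less: Fbln5 had 3111, 3064 and 3071 against 799, 732 and 729, which is 4.09-fold lower (adjusted p = 2.4e-10). Efemp2 had 7130, 7142 and 6991 against 2279, 2544 and 2160, which is 3.04-fold lower (adjusted p = 2.8e-09). Groups did not overlap for any of these 4 fibulins.

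Mfap5, a small microfibril-associated glycoprotein, had the least certain call in the set. Its values spread from 33.1 to 60.5 in the TNF-α group and from 10.3 to 26.6 in the EMO group, and the groups came close without overlapping (log2 fold change -1.43, SE 0.39, adjusted p = 0.0053). The other 5 elastic fiber genes were not tested. Elastin (Eln) itself and Mfap4 had 0 counts in every library, and Fbn2, Mfap2 and Efemp1 had at most 2.

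All 7 matricellular genes that were tested fell, against 27.8% called lower over all genes tested. Among them was Thbs2, with the deepest fall among members above the floor. Thrombospondins are trimeric or pentameric glycoproteins, and thrombospondins 1 and 2 restrain blood vessel growth. Thbs2 (chromosome 1, 56653938 to 56683731, minus strand) had 25554, 26370 and 22359 normalized counts with TNF-α alone and 13.4, 18.4 and 15.3 with EMO, a 1564-fold fall (log2 fold change -10.61, SE 0.13, adjusted p = 8.1e-13). Thbs1 (chromosome 3, 109862117 to 109873466, plus strand), which can also activate latent TGF-β, had 32448, 33362 and 33569 against 136, 120 and 105, a 275-fold fall (log2 fold change -8.10, SE 0.09, adjusted p = 8.1e-13). In both genes the EMO libraries were uniformly low and the TNF-α libraries uniformly high. Thbs3, of the pentameric kind, had 1097, 1097 and 1127 against 76.3, 81.9 and 99.8, and fell 12.8-fold (adjusted p = 1.4e-10). Comp, the pentameric thrombospondin of cartilage and tendon, had 8, 8 and 15 counts and then none, at least 3.28-fold lower and not tested, and Thbs4 had 1 count in 1 library.

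Periostin (Postn; chromosome 2, 143656793 to 143688087, plus strand), a marker of remodelling connective tissue, had 19903, 21732 and 18886 normalized counts against 145, 143 and 168, a 132-fold fall (log2 fold change -7.05, SE 0.10, adjusted p = 1.5e-12). Osteopontin (Spp1; chromosome 14, 6673686 to 6679901, minus strand), a secreted integrin ligand and cytokine, had 80521, 80614 and 85027 against 1613, 1778 and 1686, a 48.5-fold fall (log2 fold change -5.60, SE 0.07, adjusted p = 8.1e-13). Both were high in every TNF-α library and low in every EMO library. Tenascin C (Tnc), an injury-induced glycoprotein that alters cell adhesion, had 5861, 5793 and 6640 against 764, 847 and 811, and fell 7.55-fold (adjusted p = 6.7e-11).

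Sparc, a collagen-binding glycoprotein also called osteonectin, had the smallest fall of all 28. It had 15312, 15580 and 16022 normalized counts against 6642, 7324 and 7090, 2.23-fold lower (log2 fold change -1.16, SE 0.06, adjusted p = 9.6e-09). Its relative Sparcl1, 314288 bases from Spp1 on chromosome 14, had 0 counts in every library.

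Promoter letters were compared between genes that fell by very different amounts. RefSeq (GRCr8, a later build than that of the deposited coordinates) gave the 250 bases before the start of 33 of the 46 genes in the table, 19 of them tested. The windows of Thbs1 (275-fold lower) and Sparc (2.23-fold lower) are shown because both are abundant matricellular genes that share a searched motif and differ in fold. Sdc4 is shown for its many GC boxes, and Ecm1, a secreted glycoprotein described next, for holding the only AP-1 match. They are written 5′ to 3′ on the gene's strand, with motif matches in capitals.
Thbs1, chr3:125510000-125510249 (+): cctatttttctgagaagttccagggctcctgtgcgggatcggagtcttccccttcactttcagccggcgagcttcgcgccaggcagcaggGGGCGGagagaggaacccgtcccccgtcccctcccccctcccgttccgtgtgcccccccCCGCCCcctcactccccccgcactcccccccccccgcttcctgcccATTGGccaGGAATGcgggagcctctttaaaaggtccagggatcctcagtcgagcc
Sparc, chr10:40038817-40039066 (-): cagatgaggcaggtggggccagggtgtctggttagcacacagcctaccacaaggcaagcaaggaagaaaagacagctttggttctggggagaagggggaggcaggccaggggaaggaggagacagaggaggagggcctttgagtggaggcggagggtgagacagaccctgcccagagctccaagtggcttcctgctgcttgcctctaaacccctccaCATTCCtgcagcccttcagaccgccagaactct
Sdc4, chr3:173592924-173593173 (-): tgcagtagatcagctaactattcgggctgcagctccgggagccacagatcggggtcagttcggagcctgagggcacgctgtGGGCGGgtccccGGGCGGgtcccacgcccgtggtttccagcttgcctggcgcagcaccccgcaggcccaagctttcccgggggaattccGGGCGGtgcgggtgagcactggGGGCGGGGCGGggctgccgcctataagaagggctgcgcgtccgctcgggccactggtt
Ecm1, chr2:185981607-185981856 (-): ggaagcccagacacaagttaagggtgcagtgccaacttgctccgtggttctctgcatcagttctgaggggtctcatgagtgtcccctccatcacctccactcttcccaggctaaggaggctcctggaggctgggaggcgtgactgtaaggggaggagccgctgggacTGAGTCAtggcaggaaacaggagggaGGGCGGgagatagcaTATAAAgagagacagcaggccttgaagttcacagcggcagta
In Thbs1 the capitals mark a GC box 160 bases before the start, a GC box on the opposite strand 101 bases before it, a CCAAT box on the opposite strand 55 bases before it and the TEAD letters on the opposite strand 47 bases before it. In Sparc they mark the TEAD letters 33 bases before the start. In Sdc4 they mark 5 GC boxes, at 169, 157, 80, 58 and 53 bases before the start, of which the last 2 overlap. In Ecm1 they mark an AP-1 element on the opposite strand at 83, a GC box at 57 and a TATA box at 42 bases before the start.

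The motifs were searched on both strands, and a match is a description of letters, not of a bound factor. The GC box GGGCGG was found for 18 of 33 genes, and for 12 of the 19 tested, against 30.5% of all 33465 windows. A gene was counted if any of its windows held the letters, whereas each percent counts single windows. The 2 are thus not the same measure, here and for the motifs below. TATAAA was in 7 of 33, with Ecm1, Postn, Spp1 and Tnc among the tested genes, against 12.9%. CATTCC, the TEAD letters, was in 8 of 33 against 12.1%, with Nid1, Sparc and Thbs1 among the tested genes. The TEAD letters stood before both the gene with the smallest fall and a gene with one of the deepest. CCAAT was in 11 of 33 against 34.0%, and the AP-1 element TGACTCA was in 1 of 33 against 4.05%. The cyclic AMP response element TGACGTCA (1.59% of all windows) and the E box CACGTG (5.59%) were in no window of the 33 genes.

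Of the adhesive and other glycoproteins, 5 of 8 were tested and all 5 fell, against 27.8% called lower over all genes tested. Fibronectin (Fn1; chromosome 9, 78900103 to 78969078, minus strand), to which fibroblasts attach through integrins, had 83394, 86939 and 72988 normalized counts with TNF-α alone and 1427, 1461 and 1451 with EMO. The EMO values were nearly identical to one another, and the fall was 56.1-fold (log2 fold change -5.81, SE 0.08, adjusted p = 1.6e-12). A gene on the opposite strand overlaps Fn1 but had no more than 15 counts. The nidogens, which join laminin and collagen IV networks, both fell: Nid1 had 3114, 3220 and 2965 against 249, 278 and 203, which is 12.7-fold lower (adjusted p = 1.1e-10). Nid2 had 3236, 3103 and 3314 against 160, 143 and 158, which is 20.9-fold lower (adjusted p = 5.0e-12).

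Ecm1, a secreted glycoprotein of skin and vessel matrix, had 1511, 1503 and 1369 normalized counts against 168, 264 and 227, and fell 6.64-fold (adjusted p = 1.8e-08). Matrix Gla protein (Mgp; chromosome 4, 170856751 to 170860225, minus strand), an inhibitor of calcification, had between 304 and 344 in the TNF-α libraries and 0 in each EMO library, a fall of at least 104-fold (adjusted p = 5.1e-09). Mgp, Lum and Prelp were the tested members with 0 counts in each EMO library. Matn2 had 5, 4 and 3 counts against 2, 1 and 0, vitronectin (Vtn), a plasma protein made mainly in liver, had 0 against 0, 1 and 2, and Dpt had 0 throughout. In all, 17 of the 46 genes stayed under the filter, 6 of them at 0 in every library, and none exceeded 15 counts in any library.

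The order of the genes by level changed between the groups. Levels between genes are given as normalized counts per kilobase of the deposited gene length. In the TNF-α group Spp1 was first at 54018 ± 1695 (SD, n = 3), followed by Bgn at 23318 ± 1782 and Fn1 at 9649 ± 863. Fn1 and Thbs1, next at 9063 ± 163, differed by less than 1 SD of Fn1. In the EMO group Sparc at 3402 ± 168 and Bgn at 3159 ± 286 led and lay within their spread of each other, followed by Efemp2 at 1480 ± 125 and Spp1 at 1114 ± 54.5. Fn1 moved from 3rd to 9th (172 ± 2.05), Thbs1 from 4th to 19th (32.9 ± 4.27), Postn from 6th to 15th (47.2 ± 4.26), Thbs2 from 8th to 25th (2.67 ± 0.431) and Vcan from 9th to 23rd (9.64 ± 1.43). Sdc4 moved from 13th to 5th and Sdc2 from 15th to 6th although both fell. As a share of all counts on the 46 genes, Fn1 went from 19.7% ± 1.14 to 5.32% ± 0.188 and Spp1 from 20.0% ± 1.28 to 6.21% ± 0.161, whereas Bgn went from 13.7% ± 0.670 to 28.1% ± 1.85 and Sparc from 3.81% ± 0.202 to 25.8% ± 0.952 (SD, n = 3 each).

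**Figure D4:**
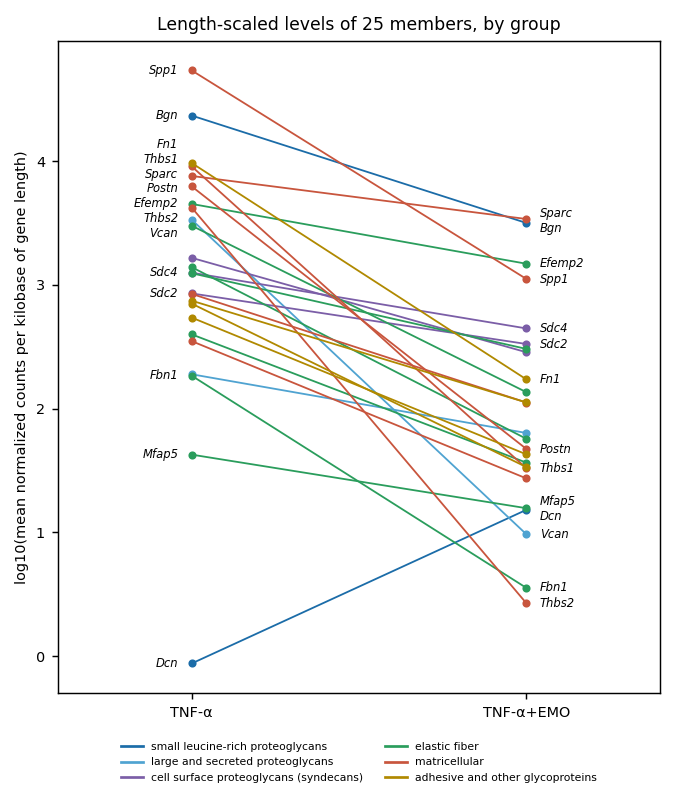
Mean normalized counts per kilobase, as log10, in the TNF-α group (left) and the EMO group (right), 1 line per gene for the 25 tested genes above the detection floor in the EMO group. Spp1 leads on the left at 54018 and Sparc and Bgn lead on the right at 3402 and 3159, and Dcn is the only line that rises.

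Enzymes that build the sugar chains of proteoglycans went both ways. Beside the counts for these and the other related lists stand 27.8% called lower and 19.5% called higher over all genes tested. Of 19 tested genes for the linker and for chondroitin or dermatan sulfate, 11 were called lower, 1 higher and 7 neither, with a median log2 fold change of -1.16. By the adjusted p alone, with no fold threshold, 12 were lower and 5 higher, among them the chondroitin polymerizing factors Chpf (3574 to 6062, log2 fold change 0.76) and Chpf2 (3358 to 5724, 0.77), which are named after their values were seen. Chsy1, a chondroitin synthase, went from 2131 ± 25.9 to 974 ± 91.0 normalized counts (SD, n = 3 each; log2 fold change -1.13), and Fam20b, the kinase that phosphorylates the linker xylose, from 1633 ± 42.3 to 731 ± 29.2 (-1.16). B3gat3, which adds the last sugar of the linker, rose from 1743 ± 59.3 to 5390 ± 554 (1.63). The summed level of this list ranged from 22713 to 23706 in the TNF-α group and from 22097 to 24112 in the EMO group, so the ranges overlapped. Of 17 tested heparan sulfate enzymes, 11 were called lower, 1 higher and 5 neither (median -1.10), or 14 lower and 1 higher with no fold threshold, and their summed level went from 23423 to 23911 down to 10195 to 11005. Ext1, a heparan sulfate polymerase, went from 2862 ± 52.7 to 1004 ± 40.9 (-1.51), and Sulf1, which trims sulfate groups outside the cell, from 2062 ± 90.2 to 965 ± 39.4 (-1.10). Hs3st5, a sulfotransferase, rose from 7.49 ± 0.581 to 90.5 ± 8.68 (3.57). It passed the count filter only through the EMO group, so it had to differ.

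Of 10 tested genes for sulfate and sugar supply, 3 were called lower, near the background of 27.8%, 1 was called higher, against 19.5%, and 6 were neither (median -0.25). Only 2 were called lower with DESeq2's Wald test. For 2 of the 10 the count filter was passed only through the group in which they were high, so these had to differ. Ugdh, which makes the UDP-glucuronate of all these chains, went from 7145 ± 222 to 671 ± 41.4 (log2 fold change -3.41). The sulfate transporter Slc26a1 went from 27.0 ± 3.19 to 6.50 ± 2.62 but overlaps Idua, which had up to 3218 counts, and is therefore uncertain, and the anion exchanger Slc26a6 rose from 241 ± 24.8 to 565 ± 51.3 (1.23). All 3 tested glypicans, heparan sulfate proteoglycans anchored to the membrane by a lipid, fell, with Gpc1 going from 4979 ± 200 to 2116 ± 124 (-1.23) and Gpc4 from 1100 ± 69.1 to 306 ± 41.6 (-1.85).

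In a list of latent TGF-β binding proteins, fibrillin partners and related genes, 7 of 11 tested fell, 1 was higher and 3 were not called (median -2.66). Of all genes tested, 27.8% were called lower and 19.5% higher. For 1 of the 11 the count filter was passed only through the TNF-α group. Ltbp2, a microfibril-associated member of the latent TGF-β binding protein family, went from 20814 ± 1739 to 85.4 ± 13.7 normalized counts (log2 fold change -7.93). Adamtsl5, a secreted microfibril-associated protein, rose from 441 ± 64.6 to 1385 ± 154 (1.65). Of other core matrix glycoproteins, 18 of 22 tested fell, 1 rose and 3 were not called. Their median was -4.31, or -3.77 with genes at the floor set at their bound. For 8 of these 22 the count filter was passed only through the TNF-α group, so those 8 had to differ. Ccdc80 went from 26633 ± 498 to 2900 ± 46.3 (-3.20), Tgfbi, an integrin-binding protein induced by TGF-β, from 15975 ± 428 to 71.3 ± 11.4 (-7.80), and Hapln3, a hyaluronan link protein, rose from 7.49 ± 3.45 to 32.8 ± 3.14 (2.11).

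**Figure D5:**
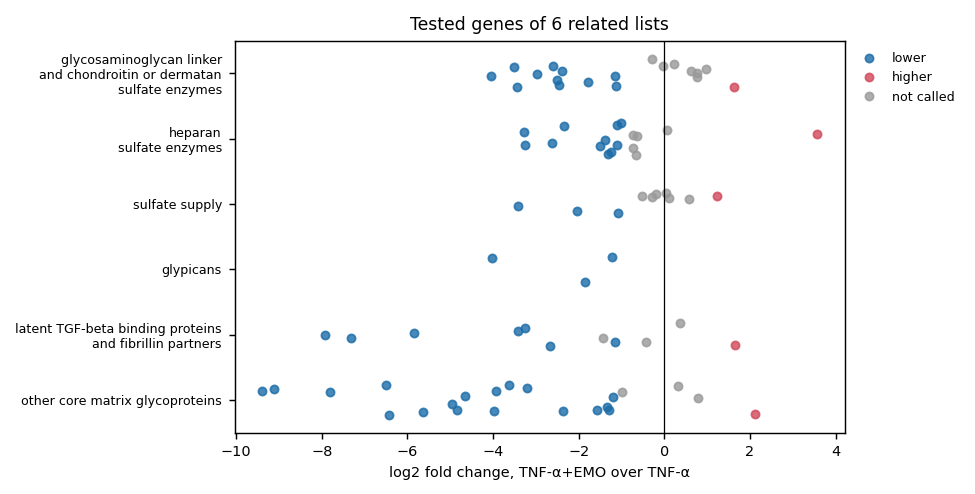
Log2 fold change (EMO against TNF-α) of each tested gene in the 6 lists of related genes, 1 point per gene, coloured by its call, with genes at the floor in the EMO group drawn at their bound. Other core matrix glycoproteins reach furthest to the left, sulfate supply lies around 0 with a median of -0.25, and each list but the glypicans has 1 gene called higher.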

How the data were processed

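Poly(A)-selected RNA of 6 rat RA-FLS libraries, 3 per group, was sequenced as paired ends. The submitters' processing notes name FastQC, Trimmomatic, HISAT2 and the Rnor_6.0 build, and the counting program and strand setting are not given in the sources used here. The authors deposited raw read counts per gene, which were used, and FPKM values, group means (a score of scaled counts), log2 fold changes and p-values of their own comparison, which were not used.

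Counts were tested with edgeR 4.0.16 (R 4.3.3; TMM, robust quasi-likelihood F test) over the 13614 of 34156 genes that reached 10 counts in 3 or more libraries, with Benjamini-Hochberg adjustment over all of them. The standard error is the log2 fold change divided by the square root of F. The floor was 3 counts per library and covers counting error only. The standard errors rest on F, which also takes in the spread between the libraries of a group. The script was tested on simulated data. Genes, classes and lists were chosen with earlier results of these data known. Every listed gene in the table is named. Values in every library are given for genes with a mean of at least 500 normalized counts in either group, for every gene called higher and for every tested gene not called. Of each list of related genes, those named are the 2 called in each direction with the highest mean level. Chpf and Chpf2, which were not called, are named outside this rule, after their values were seen. A gene that this rule names is not reported here. Lum, Fmod, Prelp, Mgp and Mfap5 are given by range or mean. Alternatives were DESeq2 1.42.0, other scalings, filters and fold thresholds, a replicate block and leaving out each library. Protein sequences were not used here.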

Additional observations from a re-analysis of the deposited data

How the results depend on the processing

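The count of genes called lower was 28 under DESeq2's Wald test, DESeq2 size factors, total counts only and every fit that left out 1 library, 33 with no filter (Comp, Sdc3, Aspn, Prg4 and Ogn were added), 26 with at least 50 counts in 3 libraries and 22 at a log2 fold change over 2. At the fold threshold of 1, each of the 345 log2 fold changes refitted under the other alternatives, for the genes that each of them tested, kept its direction and its call. Scaling by total counts only moved the median of all genes from -0.01 to -0.12. With the replicate block, 28 genes were lower and 1 was higher. The labels share replicate numbers between groups without saying what a number marks. Deviations of same-numbered libraries correlated at -0.00683 to 0.0676 over genes, and those of differently numbered libraries at -0.0701 to 0.0528. With so few libraries per group, these correlations cannot settle whether the samples were paired.

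With at least 50 counts, 0 genes were called higher, 1 sulfate supply gene was lower (2 with the replicate block, with no filter, with DESeq2's Wald test and without TNF-α replicate 1 or 2 or EMO replicate 2 or 3) and 0 other core glycoproteins were higher. With no filter, 2 heparan sulfate enzymes, 2 fibrillin partners and 2 other core glycoproteins were higher. At a log2 fold change over 2, calls lower were 1 for large proteoglycans, 1 for syndecans, 4 for heparan sulfate enzymes and 1 for glypicans, and calls higher were 0 for linker and chondroitin enzymes, 0 for sulfate supply and 0 for fibrillin partners. With no fold threshold, 5 linker and chondroitin enzymes were higher, and 5 sulfate supply genes were lower and 2 higher. Linker and chondroitin enzymes called higher ranged from 1 to 2 when 1 library was left out, with 2 without TNF-α replicate 3, EMO replicate 2 or EMO replicate 3. The difference in share of counts was -2.34 percentage points, and -2.43 with the 10 genes of highest mean count left out of the total. Genes with few counts, such as Dcn and Mfap5, are the least precise here.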
